A study of Mus musculus with 30 samples.

Results

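The change of the transcriptome over 48 h of cycloheximide was compared between a mouse embryonic stem cell line, CGR8, and a mouse fibroblast line, NIH/3T3. The quantity tested for each gene is the difference between the lines: the log2 change from 0 h to 48 h in CGR8 minus the log2 change from 0 h to 48 h in NIH/3T3. A positive difference means that the RNA rose more, or fell less, in CGR8, and a negative one that it rose more, or fell less, in NIH/3T3. It compares 12 of the 30 RNA sequencing libraries of the series, the 0 h and 48 h libraries of both lines. The spread between replicates was estimated from a fit of all 30. Each of the 4 groups holds 3 libraries, labelled replicates A, B and C. CGR8 cells were kept in N2B27 medium with 2i and LIF, and NIH/3T3 cells in DMEM with 10% fetal bovine serum. All 12 libraries, those of 0 h included, are labelled with the genotype ROSA26 SLT knock-in and with cycloheximide at 0.1 µg/mL. The medium, the cell type and the line change together, so their parts in a difference between the lines cannot be told apart. The labels do not say whether the letters stand for separate cultures. P-values measure only the spread between replicate libraries, taken over all 30.

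Cycloheximide binds the large ribosomal subunit and blocks the elongation step of translation. Cells adjust to reduced translation through several known programmes: the amino acid response run by the factor ATF4, the unfolded protein response of the endoplasmic reticulum, the heat shock response of the cytosol, p53 signalling, sterol regulation and the synthesis of ribosomes. NIH/3T3 fibroblasts make collagen-rich matrix and depend on serum growth factors for entry into the cell cycle. Embryonic stem cells in 2i and LIF keep an active pluripotency network and have a weak interferon response.

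Each CGR8 library held at least 381 CPM (counts relative to library size) of 6 genes that mark embryonic stem cells (Tdgf1, Pou5f1, Esrrb, Nanog, Dppa5a, Zfp42), and each NIH/3T3 library at most 0.198 CPM of them. The fibroblast markers Col1a1, Col1a2, Col3a1 and Lox lay at 399 CPM or more in NIH/3T3 and at 0.737 CPM or less in CGR8. Of the 2 other fibroblast markers, Thy1 went against the label, with at most 0.0656 CPM in NIH/3T3 and 2.24 to 4.19 CPM in CGR8, and Postn did not exceed 1.01 CPM in NIH/3T3. Libraries held 18216993 to 30503109 counts. The library CGR8 0 h replicate B stood apart from its replicates: the chi-square statistic per degree of freedom over genes was 36.2 against A and 36.3 against C, where A against C gave 3.55 and the other groups gave 2.06 to 15.4. Nuclear and small-RNA host transcripts were low in it, with Firre at 62.7, 7.44 and 60.4 CPM and Snhg1 at 102, 24.5 and 111 CPM in A, B and C. Without it 3931 genes were called in CGR8, against 5026 with all libraries. Leaving out another CGR8 library of these times also lowered the count, to between 3809 (48 h replicate C) and 4532 (0 h replicate C). A list's count is given without CGR8 0 h replicate B where that moves the count by over 1.5 times. Among CGR8 libraries at 48 h, replicate A lay nearest the mean of 0 h for 1656 of the 3402 genes called in that line and expressed in both (48.7%), against 32.0% for B and 19.3% for C. In NIH/3T3 the shares of the 3 libraries were 30.3% to 36.3%.

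At 48 h the change differed between the lines for 3849 of 17549 genes tested (21.9%) at an adjusted p under 0.05 (edgeR's quasi-likelihood test with Benjamini-Hochberg adjustment). The difference was positive for 1717 genes (9.78%) and negative for 2132 (12.1%), and its median over the genes tested was -0.03. A gene was counted as expressed in a line where its mean over the line's 6 libraries was at least 1 CPM. Of 10380 genes expressed in both lines, 3161 were called (30.5%), 1499 with a positive (14.4%) and 1662 with a negative difference (16%). Without CGR8 0 h replicate B the called genes of both lines numbered 3134, of which 1626 were positive and 1508 negative, so that the larger direction changed with that library; without CGR8 48 h replicate A they numbered 3043. With all libraries, 907 of the 3161 differed at least 2-fold, 274 positive and 633 negative.

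Over all genes tested, the line's own change was called for 28.6% in CGR8 and 39.1% in NIH/3T3. Among the 10380 genes expressed in both lines it was called for 3402 in CGR8 (32.8%) and for 5247 in NIH/3T3 (50.5%). The fibroblasts also moved over a wider range: across genes the log2 change had a standard deviation of 0.57 in the fibroblasts and of 0.47 in the stem cells. In both lines 1976 genes were called, 1520 in the same direction and 456 in opposite directions. Across genes the changes of the lines had a Pearson r of 0.33 and a Spearman rho of 0.35, a description over genes that are not independent replicates. Among the 3161 genes that differed, 1606 were called in NIH/3T3 alone and 726 in CGR8 alone. A further 275 moved the same way by different amounts, 160 down and 115 up. Another 98 passed the test of the difference with neither line's own change called, and the remaining 456 are the genes that moved in opposite directions (4.39% of the genes expressed in both lines; over all genes tested, 585 or 3.33%).

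**Figure D1:**
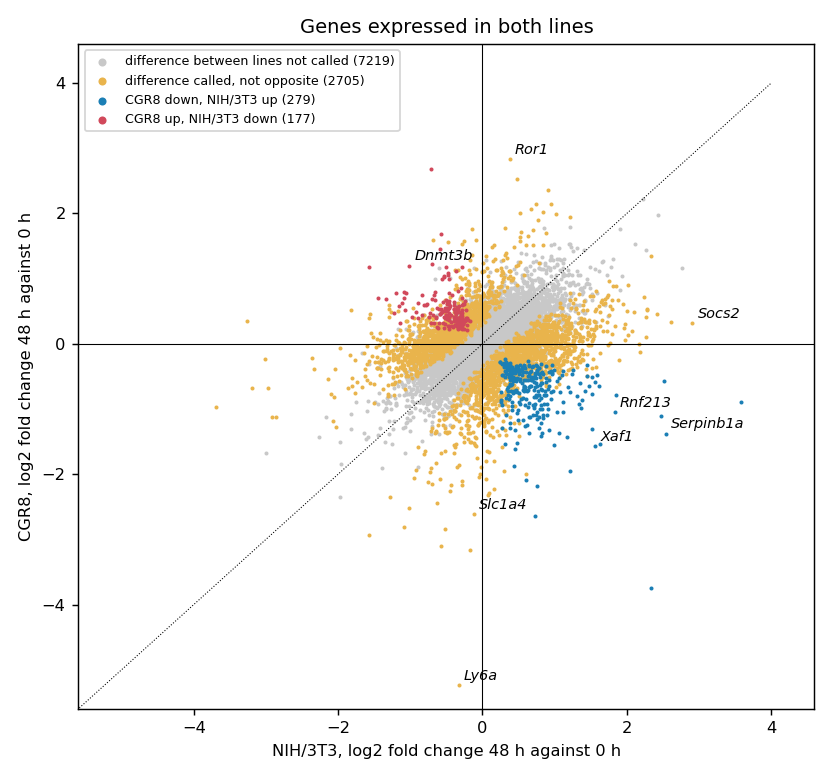
Log2 change at 48 h in NIH/3T3 (x axis) and in CGR8 (y axis) for 10380 genes expressed in both lines, each point a gene. Grey points were not called different between the lines, yellow points were, and the 279 blue genes (lower in CGR8, higher in NIH/3T3) and 177 red genes (the reverse) lie in the quadrants of opposite change; the cloud is wider along the NIH/3T3 axis.

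Of the 456 genes, 279 fell in CGR8 and rose in NIH/3T3, and 177 rose in CGR8 and fell in NIH/3T3. Without CGR8 0 h replicate B the counts were 207 and 173. With libraries scaled by their totals alone they were 349 and 132, so the size of the imbalance depends on the scaling. In 441 of them the 3 libraries at 0 h and the 3 at 48 h did not overlap in either line; among all genes expressed in both lines this lack of overlap held for 51.5% in CGR8 and 75.2% in NIH/3T3, and over all genes tested for 44.6% and 58.5%.

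Where each line averaged 5 CPM or more and libraries did not overlap, several genes with the strongest fall in CGR8 and rise in NIH/3T3 are known for roles in innate immunity, death signalling or guidance. Serpinb1a (ENSMUSG00000044734), an inhibitor of neutrophil-type serine proteases, measured 6.90, 8.14 and 8.25 CPM in CGR8 at 0 h and 3.06, 2.64 and 3.05 CPM at 48 h. In NIH/3T3 it went from 3.27, 2.95 and 2.52 CPM to 18.7, 17.2 and 16.3 CPM. Its starting level was higher in CGR8 and its final level higher in NIH/3T3, with no overlap between times in either line. The fitted fall was 2.60-fold and the rise 5.83-fold, a log2 difference of -3.92 (SE 0.23, adjusted p = 2.5e-12).

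Xaf1 (ENSMUSG00000040483), an interferon-inducible antagonist of the caspase inhibitor XIAP, crossed in the same way. It lay at 27.2, 25.8 and 27.8 CPM in CGR8 at 0 h and at 11.7, 7.43 and 7.49 CPM at 48 h. In NIH/3T3 it lay at 4.26, 3.98 and 4.0 CPM and then at 13.4, 11.8 and 11.9 CPM. The log2 changes were -1.57 and 1.56, of nearly equal size and opposite sign, and the difference was -3.12 (SE 0.21, adjusted p = 2.8e-11). Rnf213 (ENSMUSG00000070327), a very large ubiquitin ligase of antimicrobial defence, fell from 68.4, 44 and 68.8 CPM to 37.7, 20.9 and 26.4 CPM in CGR8. In NIH/3T3 it rose from 25.9, 27.3 and 23.0 CPM to 87.2, 96.2 and 96.3 CPM. Replicate B was the lowest of both CGR8 groups for this gene, and lack of overlap between the times was a condition for naming it. A gene on the other strand overlaps Rnf213, as one does Nrp2, Itgb4 and Hip1r below, and whether the counting used strand is not stated in the sources used here.

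Tnfrsf1b (ENSMUSG00000028599), the second receptor of tumour necrosis factor, fell most in CGR8 among these genes. Its CGR8 values were 13.2, 12.6 and 12.7 CPM at 0 h and 4.14, 2.05 and 2.03 CPM at 48 h, a 4.55-fold fall. Its NIH/3T3 values rose 1.69-fold, from 46.8, 44.7 and 46.8 CPM to 84.4, 81.2 and 75.3 CPM. Steap2 (ENSMUSG00000015653), a metal reductase of membranes, was more abundant in the fibroblasts by far. It fell from 9.25, 7.40 and 8.25 CPM to 3.62, 2.12 and 2.65 CPM in CGR8 and rose from 278, 295 and 245 CPM to 856, 884 and 870 CPM in NIH/3T3. Nrp2 (ENSMUSG00000025969), a co-receptor for semaphorins and vascular growth factors, fell from 56.0 ± 6.83 to 20.3 ± 1.66 CPM in CGR8 and rose from 137 ± 6.99 to 319 ± 6.89 CPM in NIH/3T3 (mean ± SD, n = 3 here and below). The differences of Tnfrsf1b, Steap2 and Nrp2 were -2.94, -3.16 and -2.60, with SEs of 0.17 to 0.23.

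In the reverse direction the gene with the largest difference under the same conditions was Dnmt3b (ENSMUSG00000027478), a DNA methyltransferase that establishes methylation as pluripotent cells leave the naive state. CGR8 had 254, 251 and 246 CPM at 0 h and 466, 596 and 613 CPM at 48 h, a 2.29-fold rise. NIH/3T3 had 20.9, 21.2 and 23.1 CPM and then 10.8, 11.0 and 11.5 CPM, a 2.03-fold fall. Among the CGR8 libraries at 48 h, replicate A lay nearest the 0 h level. The difference was 2.21 (SE 0.17, adjusted p = 4.4e-10). Foxp1 (ENSMUSG00000030067), a forkhead transcription factor, moved the same way: 22.0, 18.5 and 20.4 CPM became 37.0, 46.6 and 50.6 CPM in CGR8, and 39.7, 38.4 and 38.5 CPM became 25.8, 29.2 and 29.7 CPM in NIH/3T3. Its order between the lines reversed, since it began lower in CGR8 and ended higher there. Both genes overlap other annotated genes, Dnmt3b one on the other strand.

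The other 4 of these genes were more abundant in NIH/3T3 at 0 h. Dusp4 (ENSMUSG00000031530), a phosphatase that inactivates MAP kinases in the nucleus, rose 1.55-fold in CGR8 from 7.30, 5.91 and 6.96 CPM and fell 2.17-fold in NIH/3T3 from 86.8, 91.4 and 85.6 CPM. Emp1 (ENSMUSG00000030208), a tetraspan membrane protein, rose 1.68-fold from 29.1 ± 2.56 CPM and fell 1.80-fold from 2409 ± 176 CPM. Itgb4 (ENSMUSG00000020758), the integrin beta subunit of hemidesmosomes, rose 1.73-fold in CGR8 from 4.82, 3.99 and 3.69 CPM and fell 2.12-fold in NIH/3T3 from 14.6, 13.3 and 15.1 CPM. Hip1r (ENSMUSG00000000915), an actin-binding protein of endocytosis, rose 1.43-fold from 7.64, 6.42 and 6.96 CPM and fell 2.10-fold from 46.9, 48.3 and 52.3 CPM. The 4 differences lay between 1.59 (Hip1r) and 1.88 (Itgb4), and each of the 12 genes described was called in both lines under each alternative run.

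**Figure D2:**
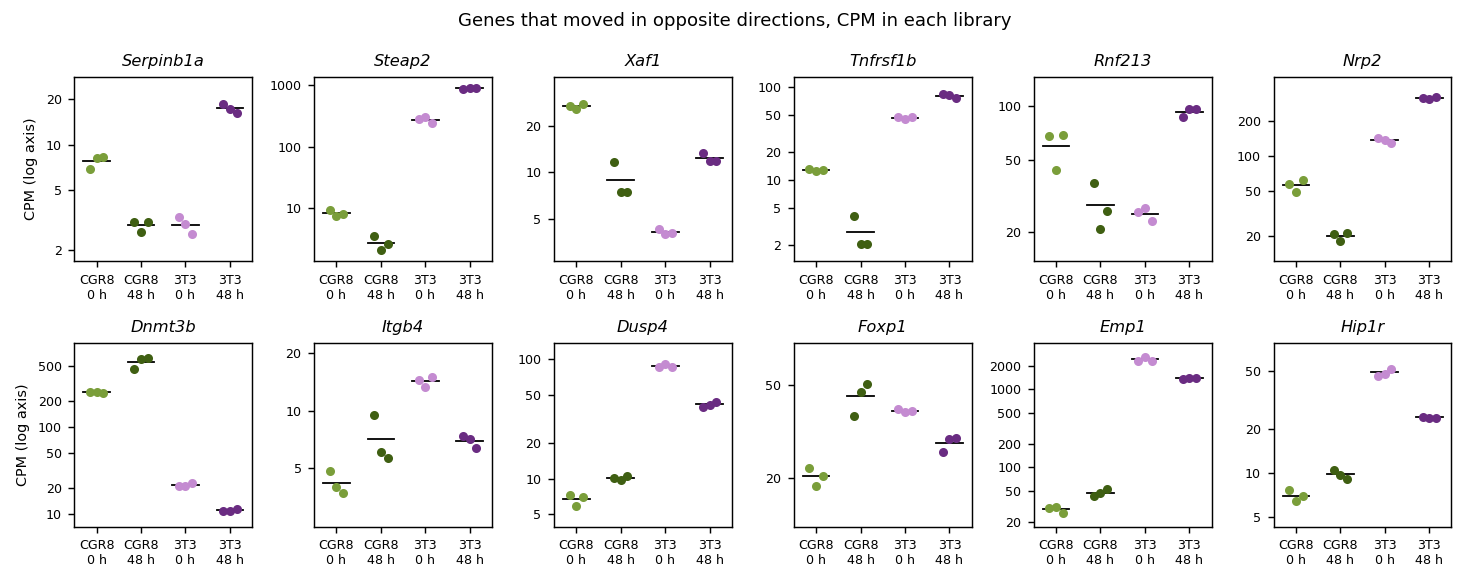
CPM on a log axis in each of the 12 libraries (points, replicates A, B and C from left to right; bars, group means) for the 6 genes in each direction with the largest difference among those that moved in opposite directions at a mean of at least 5 CPM in each line, with no overlap of libraries. In the top row CGR8 at 48 h lies below its 0 h points and NIH/3T3 above its own, as for Serpinb1a with means of 7.76 and 2.92 against 2.92 and 17.4 CPM; in the bottom row both directions are reversed.

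The 5 h libraries give a second view of these genes, with the reservation that 5 h and 48 h are compared with the same 0 h libraries. At 5 h the log2 changes of Xaf1 were -1.26 in CGR8 and -0.98 in NIH/3T3, and those of Rnf213 were -0.38 and -0.37. Xaf1 was called lower in both lines at 5 h, and Rnf213 in neither (adjusted p = 0.27 and 0.37). Serpinb1a stood at 0.57 and 1.79 and Dnmt3b at -0.39 and -0.49. Emp1 showed the opposite arrangement of its 48 h state, with -0.74 in CGR8 and 0.83 in NIH/3T3. The difference between the lines at 5 h was called for Serpinb1a (-1.23), Tnfrsf1b (-1.64), Emp1 (-1.58) and Dusp4 (0.59) among the 12.

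Genes that did not move in opposite directions included larger differences still. Ly6a, a GPI-anchored surface antigen also called Sca-1, was almost lost from CGR8: 12.3, 16.5 and 11.6 CPM at 0 h became 0.149, 0.476 and 0.407 CPM at 48 h. NIH/3T3 held 85.4 ± 0.662 and then 70.2 ± 2.12 CPM, a change that did not pass the test (log2 -0.33, adjusted p = 0.15). The difference was -4.91 (SE 0.36, adjusted p = 1.2e-10). Nlrp4f, a maternal-effect member of the NLR family, fell from 13.4 ± 1.18 to 1.46 ± 0.445 CPM in CGR8 and measured 10.1 ± 1.49 and 9.11 ± 1.15 CPM in NIH/3T3. Slc1a4, a neutral amino acid transporter, fell from 19.2 ± 0.833 to 3.06 ± 0.931 CPM in CGR8 and measured 88.5 ± 2.92 and 84.2 ± 0.861 CPM in NIH/3T3. Socs2, a feedback inhibitor of cytokine receptors that use JAK and STAT proteins, rose in both lines, 1.25-fold in CGR8 from 75.2 ± 8.88 CPM and 7.52-fold in NIH/3T3 from 1.41 ± 0.341 CPM.

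On the positive side, Ror1, a receptor of the Wnt5a pathway, rose in CGR8 from 2.65, 2.27 and 2.32 CPM to 10.6, 19.2 and 20.6 CPM. Its NIH/3T3 values, 27.3 ± 2.36 and 36.6 ± 1.27 CPM, were not called different. Fgd4, an exchange factor for the GTPase Cdc42, fell 3.52-fold in NIH/3T3 from 9.79 ± 1.87 CPM and had 4.33 ± 1.12 and 6.05 ± 0.480 CPM in CGR8. Both genes overlap another annotated gene.

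Gene groups showed where such differences gathered. For each of 33 lists of genes the members called were counted and read against the share over genes expressed in both lines, 14.4% with a positive and 16% with a negative difference. Among lists with at least 10 members expressed in both lines, positive differences were frequent for ribosome synthesis (35 of 50), heat shock chaperones (16 of 24), cholesterol synthesis (16 of 24) and DNA replication (27 of 48). Their order changed with the libraries used. Without CGR8 0 h replicate B the counts were 35, 22, 18 and 32. Leaving that library out also gave 22 of 32 proteasome subunits a positive difference. Without CGR8 0 h replicate A the same lists gave 28, 12, 16 and 25. Negative differences were frequent for interferon-stimulated genes, fatty acid synthesis and fibroblast matrix. The sign of each list's median difference given here did not change when the libraries were scaled by RLE factors or by totals alone, except for the respiratory chain.

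**Figure D3:**
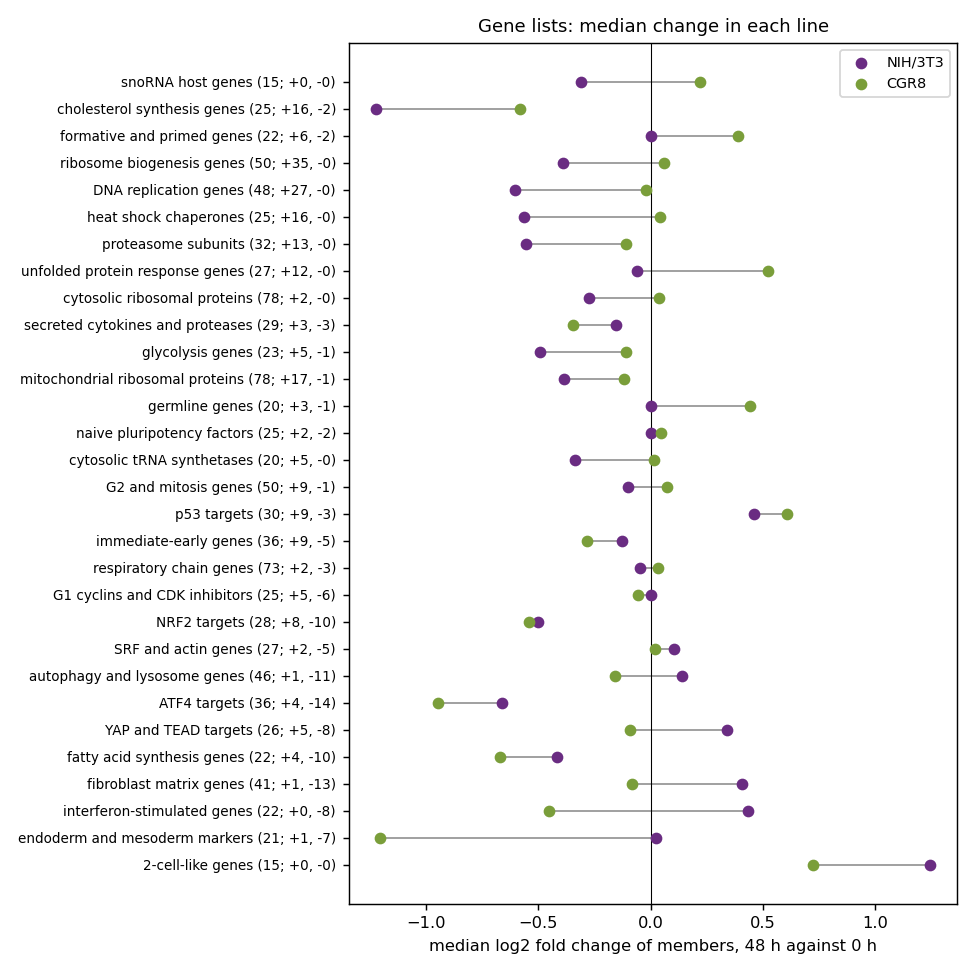
Median log2 change at 48 h of each gene list with at least 15 genes tested, in CGR8 and in NIH/3T3. The label gives the genes tested and how many had a positive or negative difference between the lines; ribosome biogenesis genes (35 positive of 50) have medians of 0.06 and -0.39, and interferon-stimulated genes (8 negative of 22) medians of -0.45 and 0.44.

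RNAs of unfolded protein response genes, among them chaperones and folding enzymes of the endoplasmic reticulum, mostly rose in CGR8 and split both ways in NIH/3T3. Of 25 members expressed in both lines, 19 rose and 0 fell in CGR8, and 6 rose and 4 fell in NIH/3T3 (background in genes expressed in both lines: 15.5% higher and 17.2% lower in CGR8, 26% and 24.5% in NIH/3T3). Positive differences were called for 12 members and negative ones for 0. Leaving out any of the 12 libraries in turn gave 12 or 13 positive differences and 16 to 19 rises in CGR8, while the rises in NIH/3T3 dropped to 3 without NIH/3T3 0 h replicate A or C or 48 h replicate A. The list's median difference was 0.44. In CGR8 the summed level of its tested members lay between 5302 and 5799 CPM at 0 h and between 7398 and 7664 CPM at 48 h, while in NIH/3T3 it lay between 10510 and 10640 CPM and then between 9660 and 10030 CPM.

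Pdia6, a protein disulfide isomerase, moved in opposite directions. CGR8 libraries held 246, 274 and 253 CPM at 0 h and 421, 445 and 401 CPM at 48 h. NIH/3T3 libraries held 895, 856 and 924 CPM and then 708, 665 and 678 CPM. The groups did not overlap in either line, and the difference was 1.18 (SE 0.15, adjusted p = 1.0e-06). Calr, Pdia3 and Dnajb11, a calcium-binding chaperone, a second isomerase and a co-chaperone, were the other members called in opposite directions, with differences of 0.96, 0.66 and 1.01. Hspa5, the main Hsp70 of the compartment, also called BiP, rose in CGR8 from 579, 584 and 635 CPM to 825, 875 and 793 CPM, and Hsp90b1, its Hsp90, from 428 ± 55.4 to 729 ± 8.07 CPM. In NIH/3T3 neither passed the test, with Hspa5 at 1360 ± 29.6 and 1217 ± 21.9 CPM. Dnajc3, an inhibitor of the kinase PERK, rose in both lines, 24.8 ± 1.03 to 56.0 ± 4.07 CPM in CGR8 and 123 ± 8.42 to 178 ± 5.03 CPM in NIH/3T3. Xbp1, the transcription factor of the pathway, rose by 0.71 and 0.72 on the log2 scale, and its difference did not pass the test.

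The promoters of these genes are known for the ER stress response element, here searched as CCAAT and CCACG with 9 bases between them, on both strands, within 250 bases before each RefSeq gene start. It was found for 9 of 23 members with a promoter in the table (39.1%), for 21 of 11552 tested genes (0.182%) and for 35 of the table's 27025 genes (0.13%). All 9 members with these letters rose in CGR8, with 1 rising and 2 falling in NIH/3T3, and 10 of the 14 without them rose in CGR8, with 4 rising and 2 falling in NIH/3T3. A match is a string of letters and shows no binding. The sequences of 4 of the 9 are shown because their genes cover the patterns above (Pdia6 and Calr in opposite directions, Hspa5 in CGR8 alone, Dnajc3 in both lines); each ends at the base before the gene start, is read 5′ to 3′ on the gene's strand of GRCm38.p6, and has the element in capitals in either orientation.
Pdia6, chr12:17266479-17266588, plus strand: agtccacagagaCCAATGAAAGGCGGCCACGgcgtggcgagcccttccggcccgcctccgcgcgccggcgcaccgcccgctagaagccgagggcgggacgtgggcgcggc
Calr, chr8:84846932-84847101, minus strand: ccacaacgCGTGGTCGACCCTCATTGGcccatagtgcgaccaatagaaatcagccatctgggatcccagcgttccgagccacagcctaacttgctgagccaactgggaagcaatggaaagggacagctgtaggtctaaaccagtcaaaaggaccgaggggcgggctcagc
Hspa5, chr2:34772010-34772089, plus strand: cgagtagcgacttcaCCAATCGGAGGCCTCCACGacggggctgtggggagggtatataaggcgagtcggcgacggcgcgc
Dnajc3, chr14:118937812-118937931, plus strand: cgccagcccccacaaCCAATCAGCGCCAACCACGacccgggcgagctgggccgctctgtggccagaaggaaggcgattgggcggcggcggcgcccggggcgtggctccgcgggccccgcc
The element lies 47 to 65 bases before the start in Hspa5, 80 to 98 in Pdia6, 87 to 105 in Dnajc3 and 144 to 162 in Calr. Calr carries it on the opposite strand, and the other 3 on the gene's strand.

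Interferon-stimulated genes, the antiviral set switched on through STAT2 and IRF9, gave the lowest median among lists with at least 11 members expressed in both lines. Of these 11 members, 8 had a negative and 0 a positive difference, against 16% and 14.4% of all genes expressed in both lines, and the list's median difference was -1.02. In CGR8 3 of the 11 rose and 5 fell, and in NIH/3T3 8 rose and 1 fell. Leaving out each library in turn gave 6 or 7 negative differences. The falls in CGR8 numbered 3 without CGR8 0 h replicate A or 48 h replicate B and 2 without CGR8 48 h replicate C. Ddx58, which encodes the cytosolic RNA sensor RIG-I, rose in both lines, from 120 ± 7.94 to 167 ± 6.97 CPM in CGR8 and from 4.51 ± 0.541 to 22.5 ± 1.57 CPM in NIH/3T3.

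Stat2, a subunit of the interferon-activated transcription complex, fell in CGR8 and rose in NIH/3T3. Its CGR8 values were 36.3, 26.1 and 34.9 CPM at 0 h and 29.2, 19.6 and 20.9 CPM at 48 h, and these groups overlap, since replicate B at 0 h lies below replicate A at 48 h. Its NIH/3T3 values were 6.99, 8.29 and 6.98 CPM and then 12.4, 11.1 and 12.3 CPM, with no overlap. The difference was -1.08 (SE 0.20, adjusted p = 2.1e-04). B2m, the light chain of class I histocompatibility molecules, fell in CGR8 from 5.83, 6.66 and 5.88 CPM to 4.10, 3.84 and 3.78 CPM and rose in NIH/3T3 from 230, 221 and 238 CPM to 306, 323 and 313 CPM. Ifi35, an interferon-induced leucine zipper protein, was the third member in opposite directions, with log2 changes of -0.72 and 0.83. Oas1a, a sensor of double-stranded RNA expressed in CGR8 alone, fell from 35.3, 42.0 and 36.0 CPM to 12.9, 16.1 and 14.1 CPM.

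The interferon-stimulated response element, searched as GAAA and GAAA with 2 bases between them, on both strands in the same window, was found for 10 of 20 members (50%), for 343 of 11552 tested genes (2.97%) and for 936 of the table's 27025 genes (3.46%). Among members with these letters 1 rose and 3 fell in CGR8 and 4 rose and 1 fell in NIH/3T3. Among the 10 without them 2 rose and 3 fell in CGR8, and 6 rose and 1 fell in NIH/3T3. Negative differences were called for 2 of the 10 with the letters and for 6 of the 10 without them. Positive ones were called for 0 in either group. The promoters of 3 members are shown because Stat2 and B2m moved in opposite directions and Oas1a fell in CGR8 alone; the element is in capitals, in either orientation.
Stat2, chr10:128270268-128270497, plus strand: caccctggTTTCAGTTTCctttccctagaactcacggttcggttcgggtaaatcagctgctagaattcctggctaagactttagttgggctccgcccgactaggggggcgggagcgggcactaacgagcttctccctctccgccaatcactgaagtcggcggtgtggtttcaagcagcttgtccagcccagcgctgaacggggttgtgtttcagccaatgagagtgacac
B2m, chr2:122147537-122147686, plus strand: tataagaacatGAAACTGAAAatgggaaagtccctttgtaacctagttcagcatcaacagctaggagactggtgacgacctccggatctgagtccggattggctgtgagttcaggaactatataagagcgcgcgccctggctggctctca
Oas1a, chr5:120907526-120907565, minus strand: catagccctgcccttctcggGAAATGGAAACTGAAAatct
In Oas1a 2 matches overlap each other and end 5 bases before the start.

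Genes of ribosome synthesis, which process ribosomal RNA and assemble the subunits in the nucleolus, mostly had a positive difference. All 50 members were expressed in both lines, and 35 had a positive and 0 a negative difference. In NIH/3T3 37 fell and 4 rose, and in CGR8 12 rose and 0 fell. With each library left out in turn 28 to 35 differences were positive; the rises in CGR8 fell to 7 without CGR8 0 h replicate B and to 6 without CGR8 48 h replicate B. Nhp2, a core protein of the box H/ACA particles, fell in NIH/3T3 from 264, 262 and 292 CPM to 101, 98.2 and 108 CPM. In CGR8 it held 264 ± 32.8 and 199 ± 25.9 CPM, which did not pass the test, and the difference was 1.09 (SE 0.24, adjusted p = 1.3e-03). Utp14a, a subunit of the small-subunit processome, rose in CGR8 from 162, 128 and 177 CPM to 270, 313 and 298 CPM and held 29.0 ± 0.891 and 28.8 ± 1.45 CPM in NIH/3T3. The 7 members called in opposite directions, each up in CGR8 and down in NIH/3T3, were Ncl, Nop58, Nop2, Utp4, Wdr43, Ddx21 and Tsr1. For Ncl, the abundant nucleolar protein nucleolin, the values were 3623 ± 571 and 4402 ± 193 CPM in CGR8 and 2747 ± 162 and 2240 ± 42.8 CPM in NIH/3T3.

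The other translation lists had smaller shares of called genes. Of 76 cytosolic ribosomal protein genes expressed in both lines 1 was called, Rpl13a (0.95, adjusted p = 0.017), and 10 were called, all positive, when CGR8 0 h replicate B was left out. The call of Rpl13a was lost without CGR8 48 h replicate B (adjusted p = 0.055). Processed pseudogenes of these genes can share their reads, so single members are uncertain. Of 20 cytosolic aminoacyl-tRNA synthetases, which charge tRNAs with amino acids, 5 had a positive difference, 16 fell in NIH/3T3 and 8 fell in CGR8. Rars, the arginine enzyme, rose in CGR8 from 302 ± 13.3 to 389 ± 22.9 CPM and fell in NIH/3T3 from 336 ± 3.64 to 298 ± 4.79 CPM. The NIH/3T3 fall of Rars was lost in 4 alternatives, with adjusted p of 0.062 to 0.14. Among 78 mitochondrial ribosomal protein genes 17 had a positive and 1 a negative difference, 42 fell in NIH/3T3 and 10 fell in CGR8, with Mrpl49 (0.96) and Mrpl55 (-0.81) at the ends. The positive count was 25 without CGR8 0 h replicate B, 11 without replicate A and 10 without CGR8 48 h replicate B. The 10 falls in CGR8 became 4 without CGR8 0 h replicate B, 5 without CGR8 48 h replicate A and 3 without replicate C.

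Heat shock chaperones of the cytosol, which fold new proteins, differed in 16 of 24 members, each with a positive difference. In NIH/3T3 20 of the 24 fell and 1 rose, and in CGR8 4 rose and 1 fell, with 2 rising without CGR8 0 h replicate A or 48 h replicate C. Ahsa1, an activator of Hsp90, held 306, 335 and 344 CPM and then 304, 361 and 324 CPM in CGR8, groups that overlap. It fell in NIH/3T3 from 314, 296 and 328 CPM to 178, 174 and 172 CPM, and the difference was 0.93 (SE 0.16, adjusted p = 1.2e-04). Hsp90aa1, the inducible Hsp90, fell in NIH/3T3 from 2064 ± 127 to 1205 ± 24.3 CPM and had 5160 ± 333 and 4521 ± 301 CPM in CGR8. Hspa4, an exchange factor for Hsp70, rose in CGR8 from 1049 ± 34.0 to 1235 ± 20.1 CPM and fell in NIH/3T3 from 717 ± 13.6 to 597 ± 5.69 CPM. Of 32 proteasome subunits 13 had a positive difference, 27 fell in NIH/3T3, and 2 rose and 1 fell in CGR8. Psma5, a subunit of the catalytic core, fell in NIH/3T3 from 187 ± 3.24 to 108 ± 2.48 CPM and held 196 ± 17.9 and 189 ± 11.8 CPM in CGR8. With CGR8 0 h replicate B left out 22 chaperones and 22 proteasome subunits had a positive difference, and without CGR8 48 h replicate B 8 proteasome subunits had one.

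Most genes of DNA replication fell in NIH/3T3. Of 48 members, 27 had a positive and 0 a negative difference, 37 fell in NIH/3T3, and in CGR8 10 fell and 3 rose. With each library left out in turn 23 to 32 differences were positive. The falls in CGR8 numbered 6 without CGR8 0 h replicate B and 5 without CGR8 0 h replicate C or 48 h replicate A. Pcna, the sliding clamp of the polymerases, held 144, 149 and 162 CPM and then 144, 155 and 139 CPM in CGR8. In NIH/3T3 it fell from 123, 120 and 116 CPM to 54.5, 48.7 and 55.3 CPM, and the difference was 1.20 (SE 0.15, adjusted p = 9.1e-07). Cdc6, a licensing factor, held 106 ± 1.41 and 104 ± 2.28 CPM in CGR8 and fell in NIH/3T3 from 148 ± 2.49 to 79.5 ± 1.64 CPM. Prim1, the small subunit of primase, rose in CGR8 from 96.9 ± 7.71 to 161 ± 8.28 CPM and was not called in NIH/3T3. E2F motifs, searched as TTTCCCGC or TTTGGCGC, lay in 7 of 39 promoters of the list (17.9%) and in 2.73% of those of tested genes.

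The background in genes expressed in both lines was 14.4% with a positive and 16% with a negative difference. The G1 regulators split both ways, with 5 positive and 5 negative differences among 20 members expressed in both lines. The negative ones numbered 3 without NIH/3T3 0 h replicate C, CGR8 0 h replicate C or CGR8 48 h replicate B. E2f2, an activating E2F factor, fell 3.57-fold in NIH/3T3 from 6.77 ± 0.876 CPM and held 15.3 ± 2.29 and 13.2 ± 1.21 CPM in CGR8. Ccnd1, cyclin D1, fell in NIH/3T3 from 657, 658 and 633 CPM to 326, 346 and 343 CPM and held 283 ± 6.34 and 291 ± 15.4 CPM in CGR8. Ccnd3, cyclin D3, showed the reverse: 165, 197 and 145 CPM fell to 97.1, 83.2 and 80.3 CPM in CGR8, and NIH/3T3 held 98.1 ± 7.08 and 111 ± 2.33 CPM. Myc, the growth-promoting transcription factor, fell in CGR8 from 64.6 ± 1.80 to 25.6 ± 5.49 CPM and in NIH/3T3 from 264 ± 19.3 to 223 ± 4.04 CPM. Of 49 genes of G2 and mitosis 9 had a positive difference, near the background, and 1 a negative one, below it. Positive differences numbered 12 without CGR8 0 h replicate B and 5 without CGR8 48 h replicate B. Ndc80, a kinetochore protein, was called up in CGR8 (adjusted p = 0.049) and down in NIH/3T3 (0.032), and those calls were lost in many alternatives (adjusted p up to 0.21). Kif23, a kinesin of cytokinesis, had the negative difference (-0.34), which was lost in 10 alternatives.

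**Figure D4:**
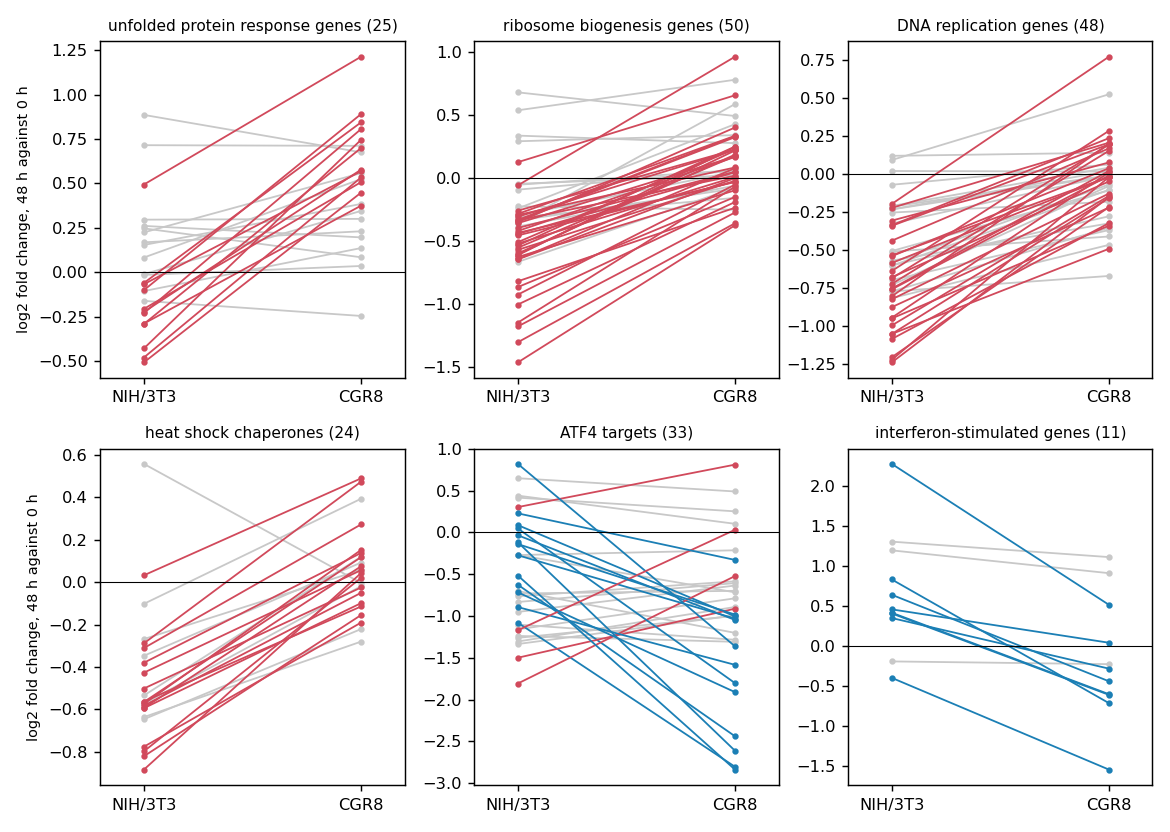
Log2 change at 48 h of each member expressed in both lines of 6 lists, with a line joining NIH/3T3 to CGR8. Red lines are called positive differences, blue called negative and grey not called; in ribosome biogenesis (35 of 50), DNA replication (27 of 48) and heat shock (16 of 24) the red lines mostly run up from negative NIH/3T3 values to near or above 0, and in the unfolded protein response (12 of 25) they end above 0.

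Most sterol and fatty acid genes fell in both lines, to unequal depth. Of 24 cholesterol synthesis genes expressed in both lines 17 fell in CGR8 and 23 in NIH/3T3, with 0 rising in either, and 16 had a positive and 1 a negative difference. Insig1, which holds the sterol-regulated factor SREBP in the endoplasmic reticulum, fell from 168, 163 and 161 CPM to 80.6, 68.2 and 71.0 CPM in CGR8 and from 58.1, 60.5 and 57.1 CPM to 8.96, 7.39 and 8.51 CPM in NIH/3T3. Tm7sf2, a sterol reductase that overlaps Vps51, was the member with a negative difference (-1.31). Fatty acid synthesis went the other way, with 10 negative and 4 positive differences among 19 members (2 positive without CGR8 48 h replicate A). Fads2, a desaturase, fell by 1.93 in CGR8 and by 0.93 in NIH/3T3. Acsl1, which activates long-chain fatty acids, fell in CGR8 from 70.6 ± 1.42 to 43.6 ± 3.39 CPM and rose in NIH/3T3 from 42.7 ± 2.44 to 72.6 ± 2.27 CPM, while its relative Acsl4 had a positive difference (0.87) and fell in NIH/3T3 alone.

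ATF4 targets, which supply amino acids and tRNA charging, mostly fell in both lines, 27 of 33 in CGR8 and 20 of 33 in NIH/3T3. Negative differences were called for 13 and positive ones for 4. Trib3, a pseudokinase that restrains ATF4, fell in CGR8 from 42.2, 44.6 and 36.1 CPM to 11.1, 6.30 and 4.72 CPM and in NIH/3T3 from 9.65 ± 1.34 to 6.52 ± 0.943 CPM. Chac1, which degrades glutathione, fell by 2.81 and by 1.08 on the log2 scale. Slc7a11, the cystine importer, went the other way, falling by 0.52 in CGR8 and by 1.81 in NIH/3T3. Asns, asparagine synthetase, fell by 0.79 and by 1.16, and its difference did not pass the test (adjusted p = 0.16). NRF2 targets, the antioxidant set, mostly fell in both lines, 16 and 15 of 24, with 8 differences each way. Nqo1, a quinone reductase, fell in CGR8 from 122, 130 and 111 CPM to 32.0, 20.4 and 20.6 CPM, with 212 ± 15.9 and 233 ± 10.5 CPM in NIH/3T3. Gsta4, a glutathione transferase, fell in NIH/3T3 from 259, 262 and 280 CPM to 55.5, 50.8 and 54.6 CPM, with 335 ± 21.2 and 281 ± 27.7 CPM in CGR8. These 2 members of the list had differences of -2.38 and 2.14.

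Targets of p53, the stress-activated tumour suppressor, mostly rose in both lines: 19 of 26 in CGR8 and 16 of 26 in NIH/3T3. Positive differences were called for 9 and negative ones for 2. Cdkn1a, the cell cycle inhibitor p21, rose by 0.49 and by 0.34, and the difference did not pass the test. Plk2, a kinase, rose in CGR8 from 21.0 ± 1.30 to 45.3 ± 2.48 CPM and held 301 ± 11.8 and 293 ± 6.13 CPM in NIH/3T3. Sesn1, a sestrin that restrains the growth kinase mTORC1, fell in CGR8 from 17.4, 16.2 and 17.3 CPM to 11.0, 9.74 and 9.07 CPM. It rose in NIH/3T3 from 19.2, 20.4 and 18.4 CPM to 40.5, 37.4 and 38.1 CPM, against the direction of most of the list in CGR8. Autophagy and lysosome genes had 11 negative and 0 positive differences among 45, which is above the background of negative differences. Lamp2, a lysosomal membrane protein, fell in CGR8 from 70.7 ± 8.76 to 47.7 ± 11.0 CPM and rose in NIH/3T3 from 114 ± 12.5 to 196 ± 7.64 CPM; without CGR8 48 h replicate B its CGR8 fall was not called (adjusted p = 0.092). Lamp1 and Grn, a second membrane protein and the precursor of granulins, also moved in opposite directions.

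In central metabolism, glycolysis genes differed about as often as all genes expressed in both lines, and respiratory chain genes were seldom called. Of 20 glycolysis genes expressed in both lines 5 had a positive and 1 a negative difference, and 12 fell in NIH/3T3 and 5 in CGR8. With CGR8 0 h replicate B left out 8 were positive. Pfkl, the liver form of phosphofructokinase, fell 2.51-fold in NIH/3T3 from 162 ± 8.21 CPM, and Pfkp, its platelet form, fell 1.48-fold in CGR8 from 138 ± 13.4 CPM. Neither was called in the other line. Of 73 respiratory chain genes 2 had a positive and 3 a negative difference, below the background (1 negative without CGR8 0 h replicate B), among them Atp5c1 (0.60) and Ndufs8 (-0.81). The call of Ndufs8 was lost without CGR8 0 h replicate B (adjusted p = 0.078), CGR8 48 h replicate C (0.057) or NIH/3T3 0 h replicate A (0.051).

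Fibroblast matrix genes rose in NIH/3T3 more often than the background. Of 41 fibroblast matrix genes tested, 22 rose and 7 fell in NIH/3T3 (21.4% and 17.7% of all genes tested). Among genes expressed in NIH/3T3 alone, 38.1% rose and 16.7% fell. The summed level of the list in NIH/3T3 lay between 20890 and 21900 CPM at 0 h and between 29540 and 29990 CPM at 48 h. Col1a1, a chain of type I collagen, rose from 3236, 2730 and 3263 CPM to 4882, 4884 and 5016 CPM. Among the 17 members expressed in both lines 7 differences were negative and 1 positive (3 without CGR8 0 h replicate B). Col5a1, a fibril-regulating collagen chain, fell in CGR8 from 11.7 ± 0.320 to 7.51 ± 0.447 CPM and rose in NIH/3T3 from 883 ± 47.1 to 1621 ± 51.6 CPM. Timp2, an inhibitor of matrix proteases, fell in CGR8 from 1.53 ± 0.303 to 0.610 ± 0.111 CPM and rose in NIH/3T3 from 1336 ± 28 to 1667 ± 20.9 CPM, the latter lost in 5 alternatives (adjusted p of 0.053 to 0.17). P4ha2, a collagen prolyl hydroxylase, had the positive difference (1.23), falling 2.17-fold in NIH/3T3.

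YAP and TEAD targets, which respond to cell contact and tension, had 8 negative and 5 positive differences among 23. In all genes expressed in both lines, 16% had a negative and 14.4% a positive difference. Ccn1, a secreted matrix protein, fell in CGR8 from 13.3, 15.5 and 14.1 CPM to 8.65, 8.89 and 7.94 CPM and rose in NIH/3T3 from 177, 160 and 197 CPM to 323, 345 and 339 CPM. Axl, a receptor tyrosine kinase, did the reverse, from 3.90 ± 0.587 to 5.85 ± 0.881 CPM and from 800 ± 9.06 to 444 ± 9.21 CPM. Of 19 SRF and actin genes 5 were negative, led by Pdlim7 (-1.63), and 2 positive, led by the tropomyosin gene Tpm2 (1.06), whose rise in CGR8 was lost without any of 5 CGR8 libraries in turn (adjusted p of 0.051 to 0.13). Immediate-early genes, which respond first to growth factors and stress, had 7 positive and 3 negative differences among 25. Jun, a subunit of AP-1, rose in CGR8 from 2.38, 2.04 and 1.29 CPM to 3.92, 4.10 and 3.99 CPM and fell in NIH/3T3 from 264, 253 and 284 CPM to 192, 193 and 208 CPM. Dusp1, a phosphatase of stress kinases, fell in CGR8 from 22.6 ± 0.940 to 10.3 ± 2.56 CPM and rose in NIH/3T3 from 30.9 ± 0.971 to 59.3 ± 8.04 CPM. Lif, the cytokine that is also in the CGR8 medium, rose in CGR8 from 3.03 ± 0.189 to 6.88 ± 1.76 CPM and fell in NIH/3T3 from 7.29 ± 0.246 to 4.68 ± 0.978 CPM; the fall was lost without any of 3 NIH/3T3 libraries in turn (adjusted p of 0.050 to 0.14). Vegfa, a vascular growth factor, fell in both lines with a difference of -1.18.

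The stem cell programme was described mainly in CGR8, where most of its genes are expressed. Of 25 naive pluripotency factors 5 rose and 3 fell in CGR8 (background over all genes tested: 13.4% and 15.3%). Without CGR8 0 h replicate B 4 rose and 1 fell. Of genes expressed in CGR8 alone 18.8% rose and 21.6% fell, so the list rose about as often as those genes. Nanog rose from 678 ± 60.9 to 879 ± 53.7 CPM and Zfp42 from 948 ± 57.6 to 1448 ± 55.1 CPM. Klf4, a reprogramming factor also active in fibroblasts, rose in CGR8 from 261, 235 and 257 CPM to 403, 369 and 376 CPM and fell in NIH/3T3 from 276, 233 and 260 CPM to 193, 202 and 206 CPM. Tbx3 was among those that fell in CGR8, from 194 ± 3.38 to 134 ± 25.3 CPM. The call of its negative difference (-0.62) was lost without NIH/3T3 0 h replicate B (adjusted p = 0.073) or CGR8 48 h replicate B (0.058). Of 22 formative and primed genes, which rise as stem cells leave the naive state, 11 rose and 3 fell in CGR8, against 6 and 4 in NIH/3T3. Otx2, a transcription factor of that step, rose from 6.73, 7.56 and 7.17 CPM to 11.6, 22.4 and 22.9 CPM in CGR8 and had 0 counts in each NIH/3T3 library of these groups. Lef1, a Wnt-responsive factor, rose in both lines, from 5.79 ± 1.17 to 23.4 ± 4.12 CPM in CGR8 and from 4.74 ± 1.11 to 7.77 ± 0.138 CPM in NIH/3T3. Pim2, a survival kinase, rose in CGR8 from 14.2, 15.4 and 13.8 CPM to 21.0, 53.8 and 51.9 CPM, with replicate A nearest the 0 h level, and Dusp6, a phosphatase of ERK, fell there from 53.6 ± 1.01 to 29.4 ± 2.40 CPM.

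Markers of other cell types moved in CGR8 too. Of all genes tested 13.4% rose and 15.3% fell in CGR8, and of genes expressed in CGR8 alone 18.8% and 21.6%. Of 21 endoderm and mesoderm markers tested 12 fell and 1 rose in CGR8, and their summed level lay between 1043 and 1056 CPM at 0 h and between 711 and 796 CPM at 48 h. Eomes, a regulator of endoderm and mesoderm, fell from 23.9, 20.9 and 22.0 CPM to 4.18, 4.28 and 2.81 CPM, and Lama1, a laminin chain of early basement membrane, from 52.0 ± 6.66 to 16.2 ± 5.05 CPM. In these bulk libraries fewer cells of a type and less RNA per cell cannot be told apart. Among the 6 members expressed in both lines 4 differences were negative, as for Col4a2 (-1.40), a collagen chain also made by fibroblasts, and 1 was positive, Gata4 (0.81), which rose in both lines. Of 8 neural markers tested 5 rose and 1 fell in CGR8 (3 and 0 without CGR8 0 h replicate B), with a summed level of 213 to 228 CPM and then 245 to 272 CPM. Nes, the intermediate filament nestin, rose there from 12.4 ± 1.27 to 20.2 ± 0.929 CPM and was not called in NIH/3T3. Germline genes had 10 rises and 3 falls among 20 in CGR8 (8 and 1 without that library), Tuba3a among them, from 18.1 ± 4.30 to 60.2 ± 4.97 CPM. The part of these marker lists in the falls of Ly6a, Gpx2 and other CGR8 genes was not tested. Of 11 adipocyte and 9 macrophage markers 2 and 3 were tested, with summed levels in each library of at most 51.1 and 21 CPM.

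Line-specific genes average under 1 CPM in the other line, so their own line's change is given. Of 2240 genes expressed in CGR8 alone 904 changed there, 421 up and 483 down, and 226 were called in the test of the difference (10.1%). Among those 226, 63 rises and 36 falls were called in NIH/3T3 alone, and 47 genes moved in opposite directions. Of 1378 genes expressed in NIH/3T3 alone 755 changed there, 525 up and 230 down, and 243 were called in that test (17.6%). Among those 243, 20 rises and 25 falls were called in CGR8 alone, and 57 genes moved in opposite directions. Such calls rest in part on the low counts of the other line. Gpx2, an intestinal-type glutathione peroxidase, fell in CGR8 from 37.9, 46.2 and 38.0 CPM to 4.33, 2.96 and 4.07 CPM. Ggt1, which breaks down extracellular glutathione, fell from 12.9 ± 1.81 to 1.90 ± 0.584 CPM, and Fabp3, a fatty acid carrier, from 30.6 ± 2.36 to 4.84 ± 2.48 CPM. Gpx2 and Ggt1 both act on glutathione. Rising in CGR8 were Esrp1, an epithelial splicing regulator, from 6.36, 6.26 and 7.09 CPM to 27.8, 44.3 and 46.8 CPM, the GABA-synthesising enzyme Gad1 from 2.26 ± 0.448 to 10.5 ± 1.05 CPM, and Slc27a2, a fatty acid transporter, from 10.7 ± 1.65 to 37.7 ± 9.83 CPM.

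In NIH/3T3 the gene with the largest fall was Acsbg1, an acyl-CoA synthetase, from 13.1, 12.3 and 13.7 CPM to 0.198, 0.440 and 0.384 CPM. Prl2c2, the growth-factor-induced hormone proliferin, fell from 62.7 ± 3.53 to 5.74 ± 0.929 CPM, and the long non-coding RNA Wincr1 from 11.2 ± 0.907 to 1.23 ± 0.504 CPM. Ranbp3l, a nuclear export factor, rose most of the line's genes under the naming rule, from 0.297, 0.214 and 0.164 CPM to 21.2, 16.5 and 20.4 CPM, an 84.2-fold fitted change. Ces2e, a carboxylesterase, rose from 1.46 ± 0.142 to 17.2 ± 0.758 CPM and Scn2a, a neuronal sodium channel subunit, from 1.72 ± 0.367 to 11.4 ± 0.468 CPM. Scn2a also rose in CGR8, from 0.356 ± 0.156 to 0.744 ± 0.151 CPM, and Acsbg1 fell there from 0.324 ± 0.136 to 0.0884 ± 0.0549 CPM. None of these 12 genes lost the call of its own line in any alternative run.

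**Figure D5:**
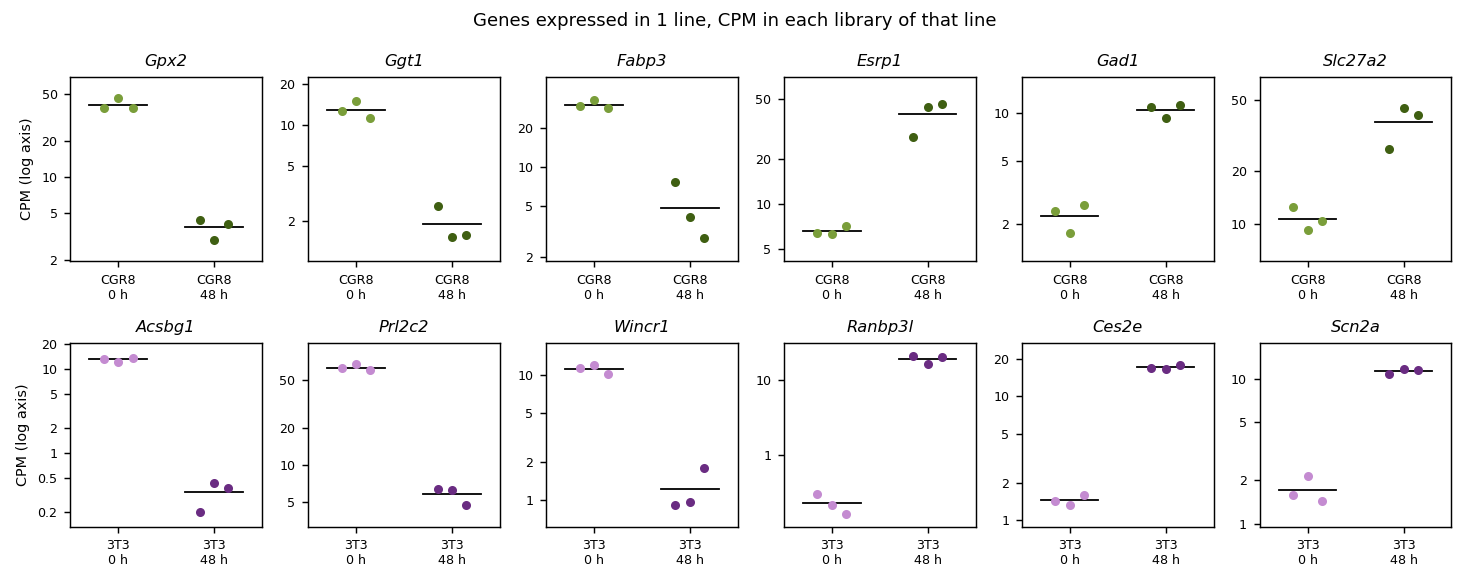
CPM on a log axis in each library of the expressing line (points, replicates A, B and C from left to right; bars, group means) for 6 genes specific to CGR8 (top) and 6 specific to NIH/3T3 (bottom), at 0 h and 48 h. These genes were chosen with no overlap between the times in their own line. Ranbp3l goes from a mean of 0.225 to 19.3 CPM.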

How the data were processed

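Per the labels' protocols, RNA was column-purified and libraries were made with an Illumina stranded mRNA ligation kit. For 57186 gene identifiers the authors deposited a table of counts, not normalized, as its whole numbers and unequal totals show. The submitters' processing notes name STAR, DESeq2 and GRCm39, with no versions; the counting tool, its use of strand and the annotation release are not given in the sources used here. Symbols (90.7% of identifiers) and overlaps between genes came from GENCODE M21, and promoters from RefSeq on GRCm38.p6.

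All 30 libraries in 10 groups were fitted in R 4.3.3 with edgeR 4.0.16 (TMM factors, filterByExpr at 10 counts per library and 15 in total, quasi-likelihood F test, prior count of 0.125 for fitted changes, 20 residual degrees of freedom). P-values were adjusted by the Benjamini-Hochberg method over 17549 genes and called under 0.05. CPM, counts per library total times its TMM factor, used the same factors. On simulated counts of 17549 genes for this contrast, 85 of 104 genes changed by a log2 of 1 and 93 of 96 changed by a log2 of 2 were recovered, with 1.66% of calls false. The simulation changed only 200 genes, in CGR8 at 48 h, and drew each count independently. It held no library that stood apart, so its share of false calls need not hold for the data.

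The gene lists and the naming rules were chosen with earlier results of these data known. Named by rule are the 6 largest differences each way among genes moving in opposite directions (mean of at least 5 CPM in each line, no overlap of libraries), the 4 largest each way among other genes expressed in both lines, 3 rises and 3 falls per line among line-specific genes (10 CPM or more at the higher time), and the extreme called member of each list each way. For line-specific genes the rule also required no overlap of libraries between the times in their own line. Other genes named, and those whose sequences are shown, were chosen after their values were seen. Predicted genes and pseudogenes were passed over, and a few genes that the rules name are not reported here. Gpx2, Fabp3, Esrp1, Gad1, Slc27a2, Tbx3, Col4a2, Tuba3a, Timp2, Pdlim7, Jun, Dusp1, Rpl13a, Nhp2, Psma5, Acsl1, Slc7a11, Pdia6, Ahsa1, Sesn1, Ccnd3, Ndc80, Pfkp, Atp5c1 and Mrpl49 also overlap another annotated gene and may share its reads. Alternatives were RLE factors, library size alone, DESeq2 1.42.0, limma 3.58.1 voom with quality weights, no filter, a mean of at least 5 CPM, the 12 libraries alone, a block for the replicate letter, and fits that each left out 1 library.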

Additional observations from a re-analysis of the deposited data

Results flagged for a closer look

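The test of the difference itself singled out 3849 genes whose 48 h change differed between CGR8 and NIH/3T3, and 585 of the 17549 genes tested moved in opposite directions, whether or not they were expressed in both lines. Of the genes named by rule, those past this test and reported here are given with their difference (log2, CGR8 minus NIH/3T3). Down in CGR8 and up in NIH/3T3 were Serpinb1a (-3.92), Steap2 (-3.16), Xaf1 (-3.12), Tnfrsf1b (-2.94), Rnf213 (-2.88), Nrp2 (-2.60), Dusp1 (-1.99), Sesn1 (-1.69), Ccn1 (-1.58), Timp2 (-1.56), Acsl1 (-1.38), Lamp2 (-1.27). Up in CGR8 and down in NIH/3T3 were Rars (0.62), Ndc80 (0.74), Klf4 (1.05), Tpm2 (1.06), Pdia6 (1.18), Axl (1.51), Jun (1.57), Hip1r (1.59), Emp1 (1.60), Foxp1 (1.69), Dusp4 (1.75), Itgb4 (1.88), Lif (1.91), Dnmt3b (2.21). Called in CGR8 alone, and lower there at 48 h, were Ly6a (-4.91), Nlrp4f (-2.99), Slc1a4 (-2.50), Nqo1 (-2.38), Pdlim7 (-1.63), Col4a2 (-1.40), Tm7sf2 (-1.31), Ccnd3 (-1.06), Ndufs8 (-0.81), Mrpl55 (-0.81), Dusp6 (-0.79), Pfkp (-0.64), Lpl (-0.63), Tbx3 (-0.62), Kif23 (-0.34). Called in CGR8 alone, and higher there, were Nes (1.04), Plk2 (1.23), Tuba3a (1.91), Pim2 (2.27), Ror1 (2.46). In NIH/3T3 alone the genes called lower were Atp5c1 (0.60), Psma5 (0.81), Acsl4 (0.87), Ahsa1 (0.93), Rpl13a (0.95), Mrpl49 (0.96), Nhp2 (1.09), Pcna (1.21), Pfkl (1.22), P4ha2 (1.23), E2f2 (1.67), Gsta4 (2.14), Fgd4 (2.33). Lower in both lines by different amounts were Vegfa (-1.18), Slc7a11 (1.29). Higher in both lines by different amounts were Socs2 (-2.59), Ddx58 (-1.76), Gata4 (0.81).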

How the results depend on the processing

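Under RLE factors, library size alone, DESeq2, no filter, and a floor of 5 CPM on the mean, the genes whose change differed numbered 3819, 3957, 4048, 3547 and 3429, against 3849. Library size alone moved the median difference to -0.11 and the share of positive differences from 44.6% to 36.1%. The 12 libraries fitted alone gave 5333 genes, and 929 in opposite directions, of which 786 were expressed in both lines, 357 up in CGR8 and 429 down. Voom with quality weights gave 7622 genes, 5631 of them expressed in both lines, with 1414 and 1145 in opposite directions, 553 up in CGR8 and 592 down. Why these fits call more was not tested. With 1 library left out at a time, differing genes numbered 3136 to 3798, those expressed in both lines 2576 to 3134, genes called in CGR8 3809 to 4954 and in NIH/3T3 5648 to 7007, and genes in opposite directions 432 to 547, of which 330 to 443 were expressed in both lines, 122 to 173 up in CGR8 and 198 to 270 down. The lowest count of differing genes came without CGR8 48 h replicate B. A replicate block, the letter as a term, gave 3840 genes, 3706 of them called without it; deviations of same-letter libraries at 0 h and 48 h correlated at -0.005 to 0.18 and those of different letters at -0.19 to 0.12. Not every same-letter pair exceeded 0.1 and CGR8 0 h replicate A correlated best with replicate C, so libraries were not treated as paired. Of the named genes, Tbx3, Gata4 (without CGR8 0 h replicate A, adjusted p = 0.056), Rpl13a, Kif23 and Ndufs8 lost the call of their difference in at least 1 alternative, and none changed sign. Low counts limit precision for genes near 1 CPM, and p-values cover only the spread between replicate libraries in each fit.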

Other observations

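Host genes of small nucleolar RNAs had the largest median difference of the lists with a positive one, 0.86 over 15 members tested, with 0 called, and 0.59 without CGR8 0 h replicate B, the library in which Snhg1 and Zfas1 were low. Of 15 genes of the 2-cell-like state tested, 4 rose and 1 fell in CGR8 and 0 were expressed in both lines. Without that library 1 rose and 1 fell. Over all genes tested 13.4% rose and 15.3% fell in CGR8, and 21.4% and 17.7% in NIH/3T3. Of 29 secreted cytokines and proteases tested, 6 rose and 10 fell in NIH/3T3, and 5 rose and 8 fell in CGR8. Among the 8 expressed in both lines, 0 rose and 7 fell in NIH/3T3, and 1 rose and 5 fell in CGR8. These 8 had 3 positive and 1 negative difference. Of all genes expressed in both lines 24.5% fell in NIH/3T3 and 17.2% in CGR8. The adipocyte marker Lpl, lipoprotein lipase, fell in CGR8 from 12.3 to 7.60 CPM and held 47.5 and 47.9 CPM in NIH/3T3.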
